A study of Mus musculus with 4 samples.

Results

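The genes described here encode the dystrophin glycoprotein complex and a muscle protein associated with it. They were taken by name from a fixed list of 8 (Dmd, Utrn, Dag1, Sgca, Sgcb, Sgcd, Dtna and Cav3), out of 53647 genes in the count tables. All 8 were above the filter on low counts, which left 15173 genes for the tests. Their RNA was measured by bulk sequencing in mouse primary myotubes, with 2 Control libraries and 2 EDA-A2 libraries. EDA-A2 is a form of ectodysplasin A, a ligand of the TNF family that binds the receptor EDA2R. All 4 libraries came from wild-type cells: myoblasts from the limb muscles of pups aged 2 to 3 days, grown in Ham's F-10 with serum and basic fibroblast growth factor and then differentiated in DMEM with horse serum. The EDA-A2 myotubes received 250 ng/mL for 24 h, and the cells of both groups were harvested at 72 h of differentiation. The labels name no vehicle for Control, no mouse strain, and no number of pups or cultures behind a library. Where the libraries of a group did not come from separate cultures, the p-values measure only the spread between these samples.

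In muscle fibres the dystrophin glycoprotein complex spans the plasma membrane and ties the actin cytoskeleton to the basal lamina. Dystrophin binds actin inside the cell and beta-dystroglycan at the membrane, alpha-dystroglycan binds laminin outside through its sugar chains, and the sarcoglycans brace the assembly from the side. Dystrobrevin and the syntrophins carry signalling proteins on its inner face. Caveolin-3 forms the flask-shaped pits (caveolae) of the muscle membrane and binds beta-dystroglycan. Loss of dystrophin, of a sarcoglycan, of the enzymes that build the dystroglycan sugars or of caveolin-3 causes muscle disease.

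Counts on genes were 29444155 to 29746863 read pairs per library, and at that depth 3 counts correspond to 0.101 to 0.102 CPM. In the whole table, 371 genes rose and 323 fell with EDA-A2 at an adjusted p under 0.05 by edgeR's quasi-likelihood test, and with libraries scaled to their total counts the numbers were 485 and 194. Of the genes tested, 15.6% had an unadjusted p under 0.05. Myotube markers were abundant in every library, with a sum over 7 genes of 600442 and 566492 normalized counts in Control and 428265 and 433905 after EDA-A2. Of these, 2 fell, the skeletal actin gene Acta1 (log2 fold change -0.52, adjusted p = 0.00104) and the embryonic myosin gene Myh3 (-0.57, adjusted p = 0.000199), which made up most of the sum. The other 5 did not pass, but their log2 fold changes were negative too. They were -0.36 for Ckm (adjusted p = 0.0662), -0.25 for Ttn (0.0867), -0.18 for Myog (0.360), -0.16 for Tnnt3 (0.299) and -0.01 for Mymk (0.958). The groups overlapped for Mymk alone, while over all genes tested 45% did not overlap, 22.2% with EDA-A2 lower. Fibroblast markers summed to 49596 and 51542 normalized counts in Control and 47309 and 47992 after EDA-A2, so both EDA-A2 libraries lay below both Controls. Most of that sum was the collagen gene Col3a1, whose groups overlapped (log2 fold change -0.04). In edgeR's fit Col1a1 had -0.46 (adjusted p = 0.221) and Dcn 0.48 (adjusted p = 0.267). Dividing cell markers summed to 19378 to 23059, and no gene was called in either list. Smooth muscle and pericyte markers summed to 15779 and 19261 in Control and 21279 and 19743 after EDA-A2, so both EDA-A2 libraries lay above both Controls. Nearly all of that sum was the smooth muscle actin gene Acta2 (log2 fold change 0.23, unadjusted p = 0.0193, adjusted p = 0.188 in edgeR's fit), and its part in the results was not tested. Cspg4 of the same list went the other way, with 41.21 and 39.33 normalized counts in Control and 27.45 and 16.71 after EDA-A2. Its log2 fold change was -0.86 (adjusted p = 0.201 in edgeR's fit). The groups overlapped for Rgs5, and Myh11 had 5 counts in every library. Myoblast markers summed to 4201 to 4941, with no gene called. The Schwann cell marker Sox10 and the fibroblast markers Lum and Thy1 had 0 counts in all libraries. Endothelial, macrophage and Schwann cell markers summed to between 29.5 and 369.5 normalized counts in each library.

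Of the 8 members, 1 was called, and it was Cav3, the gene of the associated protein, and no gene of the complex proper. Cav3 fell by 34.1% after EDA-A2, and no member rose. That is 12.5% of the members, beside 4.57% of all genes tested that were called in either direction, 2.13% of them lower and 2.45% higher. The other 7 members did not pass the test, and their fitted changes lay between -0.18 and 0.12 on the log2 scale. Over the 8 members the median log2 fold change was -0.05, with 5 negative, beside -0.00 over all genes tested, of which 7665 were negative. With total counts as the scale the members' median was 0.00. In bulk RNA a lower level cannot be told apart from fewer cells of the type that makes the transcript.

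**Figure D1:**
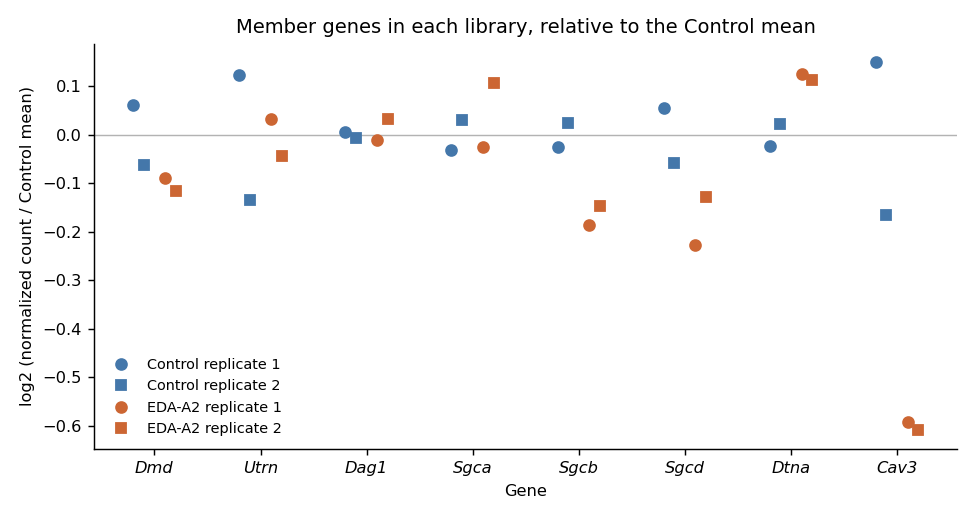
Log2 ratio of the normalized count in each library to the mean of the Control libraries (y axis) for the 8 genes (x axis), with blue points for Control, orange points for EDA-A2, circles for replicate 1 and squares for replicate 2. Both EDA-A2 libraries of Cav3, at 3155 and 3119 normalized counts, lie well below both Control libraries, at 5278 and 4242, while the groups of Utrn, Dag1 and Sgca overlap.

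Per kilobase of the canonical transcript, the most abundant members were Dag1, with a mean of 3793 normalized counts per kilobase over the 4 libraries, and Cav3 with 3413. These levels were above those of 97.2% and 96.9% of the genes tested. Then came Dtna with 1671, Sgcb with 1360, Sgca with 890.0, Utrn with 741.1, Sgcd with 471.4 and Dmd with 125.2. Only Dag1 and Cav3 overlapped among neighbours in this order. Cav3 was the higher of that pair in Control 1 (4562 against 3795 per kilobase), the lower in Control 2 (3667 against 3763) and the lower in both EDA-A2 libraries, where it stood at 2727 and 2696 against 3749 and 3866. Dmd had the lowest level of the 8, and 42.0% of the genes tested lay below it. Counts are per gene and pool all transcripts of a gene, and which transcripts the cultures held is not known from them. The order depends on the length used: over all annotated exons of a gene, Sgcb, Utrn and Sgca came before Dtna, and Sgcd was last at 64.0 per kilobase, behind Dmd at 77.8.

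**Figure D2:**
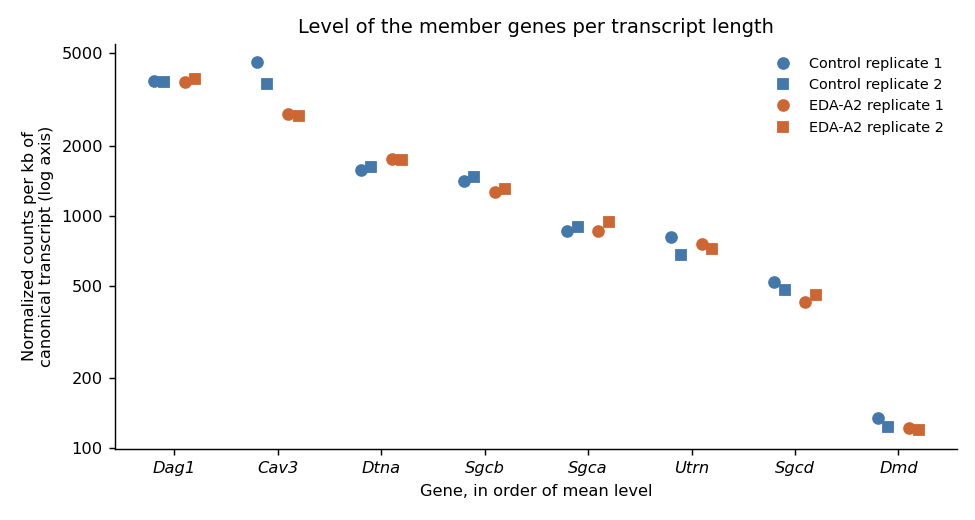
Normalized counts per kilobase of canonical transcript (y axis, log scale) for the 8 genes (x axis) in order of their mean, with a point for each Control and EDA-A2 library. Dag1 and Cav3 share the top of the range, between 2696 and 4562, and Dmd lies at 120 to 135.

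Dmd (ENSMUSG00000045103, chromosome X from 81992474 to 84249747 on the plus strand of GRCm39) encodes dystrophin, the actin-binding rod of the complex. Its normalized counts were 2021 and 1855 in Control 1 and 2, and 1821 and 1788 in EDA-A2 1 and 2. The EDA-A2 libraries were the lower pair and did not overlap the Control libraries, but the gap between the groups was smaller than the gap between the Control libraries. On the log2 scale the change was -0.10 (standard error 0.07, 95% interval -0.26 to 0.06, adjusted p = 0.586). In percent, that interval runs from -16.6% to 3.90%. The value was -0.0384 without Control 1, -0.1629 without Control 2, -0.0477 with total counts and -0.1832 with length and GC offsets, and it was not called in any of these. Groups did not overlap for 5 of the 8 members, 4 with EDA-A2 lower and 1 with EDA-A2 higher, beside 45.0% of all genes tested, 22.2% with EDA-A2 lower and 22.8% with EDA-A2 higher.

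Utrn (ENSMUSG00000019820, chromosome 10 from 12257537 to 12745265, minus strand) encodes utrophin, the autosomal paralogue of dystrophin that binds the same partners. It had 10956 and 9157 normalized counts in Control and 10290 and 9748 after EDA-A2. Both EDA-A2 values fell inside the Control range. Its log2 fold change of -0.01 (standard error 0.08, 95% interval -0.18 to 0.17, adjusted p = 0.985) had the opposite sign with total counts (0.05) and without Control 1 (0.13).

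Per kilobase of the canonical transcript, Utrn exceeded Dmd in every library, with all transcripts of each gene counted together. The ratio was 5.98 and 5.45 in Control and 6.23 and 6.02 after EDA-A2, or 5.71 ± 0.378 and 6.13 ± 0.154 (SD, n = 2 each). Both treated libraries lay above both Control libraries by a small margin. The difference of 0.413 had an exact two-sided permutation p of 0.333, which is the smallest that 2 against 2 libraries can give. Per kilobase of all annotated exons the mean ratios were 6.88 in Control and 7.38 after EDA-A2. The ratio is that of the whole culture, which also held fibroblast and dividing cell markers, and not of myotubes alone.

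Dag1 (ENSMUSG00000039952, chromosome 9 from 108081833 to 108152333, minus strand) encodes the precursor of alpha- and beta-dystroglycan, the laminin receptor at the centre of the complex. Its normalized counts were 22104 and 21915 in Control and 21836 and 22515 after EDA-A2. The 4 libraries lay close together and the groups overlapped. The fitted log2 difference was 0.01 (standard error 0.07, adjusted p = 0.969), and its 95% interval ran from -8.71% to 11.2%.

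The sugar chains of alpha-dystroglycan are built by a series of enzymes in the endoplasmic reticulum and Golgi. Of 16 such genes listed, 15 were tested, none was called, and 2 had an unadjusted p under 0.05, or 13.3% beside 15.6% of all genes tested. The median log2 fold change was -0.005, which turned to 0.0497 with total counts and to 0.0158 without Control 2. The smallest p belonged to Rxylt1, which encodes a xylosyltransferase of the chain and had 988.1 and 969.1 normalized counts in Control and 1188 and 1177 after EDA-A2. The Control pair and the EDA-A2 pair each lay close together, and the groups did not overlap. Its log2 fold change was 0.27 (standard error 0.08), with an adjusted p of 0.0677 that passed only with total counts (0.0338) among the scalings and filters tried. The most negative value of the list was that of B4gat1, whose product primes the laminin-binding repeat, at -0.94, on raw counts of only 36 and 29 in Control and 12 and 23 after EDA-A2 (adjusted p = 0.224). Large2 was under the filter, with 7 to 11 counts per library.

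Outside the cell, the extracellular partners of dystroglycan (laminin chains, agrin, perlecan and biglycan) numbered 10, all tested. None was called, and 8 were negative, beside 7665 of the 15173 genes tested. The median log2 fold change was -0.11, and 4 of the 10 had an unadjusted p under 0.05 in edgeR's test, beside 15.6% of all genes tested. The median was -0.0440 without EDA-A2 1 and -0.0543 with total counts. The smallest p belonged to Lamb2, which encodes the laminin beta2 chain, with 4064 and 4140 normalized counts in Control and 3493 and 3526 after EDA-A2 (log2 fold change -0.23, adjusted p = 0.0713). Lama2, the alpha2 chain that dystroglycan binds in muscle, had 4129 and 4451 in Control and 3640 and 3916 after EDA-A2 (-0.18, adjusted p = 0.200). In both laminin genes the EDA-A2 libraries were the lower pair without overlap.

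Of the sarcoglycan members, Sgca (ENSMUSG00000001508, chromosome 11 from 94853605 to 94867273, minus strand) encodes alpha-sarcoglycan, which is largely restricted to striated muscle. It had 1285 and 1341 normalized counts in Control and 1290 and 1413 after EDA-A2. These groups overlapped. The fitted log2 difference was 0.04 (standard error 0.08, adjusted p = 0.881), with a 95% interval from -8.54% to 15.8%.

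Sgcb (ENSMUSG00000029156, chromosome 5 from 73790086 to 73805133, minus strand) encodes beta-sarcoglycan, which forms a tight core with delta-sarcoglycan. Its normalized counts were 5357 and 5544 in Control and 4790 and 4923 after EDA-A2. The treated libraries were the lower pair, and the gap between groups exceeded that within either group. The log2 fold change was -0.17 (standard error 0.07, 95% interval -0.31 to -0.03), with an unadjusted p of 0.0233 in edgeR's fit. After adjustment over all genes tested the p was 0.212, so the difference of -10.9% did not pass. The log2 fold change was -0.1118 with total counts and -0.2044 with length and GC offsets, and Sgcb was not called with either.

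Sgcd (ENSMUSG00000020354, chromosome 11 from 46787080 to 47879796, minus strand) encodes delta-sarcoglycan. It had 840.7 and 777.5 normalized counts in Control, and 691.0 and 740.0 after EDA-A2. The highest EDA-A2 library lay just under the lowest Control library. The fitted log2 difference was -0.18 (standard error 0.09, 95% interval -0.37 to 0.02, adjusted p = 0.384). With total counts it was -0.122 and with length and GC offsets -0.2353, and Sgcd was not called with either.

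Sspn, which encodes sarcospan, the tetraspan-like partner of the sarcoglycans, had 8504 and 9774 normalized counts in Control and 8108 and 8526 after EDA-A2 (log2 fold change -0.14, adjusted p = 0.441). Sgce, the epsilon-sarcoglycan gene, which is expressed in many tissues, had 753.2 and 902.5 in Control and 819.4 and 770.5 after EDA-A2 (-0.06, adjusted p = 0.862). The groups overlapped in both genes, and the value of Sgce turned to 0.08 without Control 2. Over this list of other sarcoglycans and sarcospan, 2 of 3 genes were tested, none was called, and the median was -0.10. That median turned to 0.0238 without Control 2 and was -0.2062 without Control 1, and the value of Sspn was -0.0313 and -0.2312 in the same fits. Sgcz was almost absent, with 0 counts in 3 libraries and 1 in EDA-A2 2.

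Dtna (ENSMUSG00000024302, chromosome 18 from 23548183 to 23793477) encodes alpha-dystrobrevin, which binds dystrophin and the syntrophins. Its normalized counts were 7678 and 7920 in Control and 8503 and 8438 after EDA-A2. It was the only member whose EDA-A2 libraries both lay above both Control libraries. The fitted log2 difference was 0.12 (standard error 0.07, adjusted p = 0.431), and the 95% interval ran from -1.41% to 19.7%. With length and GC offsets the value was 0.0551.

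Of the 6 adaptors listed beside dystrobrevin (the syntrophins, beta-dystrobrevin and neuronal nitric oxide synthase), 3 were tested, all with negative log2 fold changes. Their median was -0.27, and 1 gene was called, beside 4.57% of all genes tested. That gene was Sntb1 (chromosome 15 from 55499784 to 55771046), which encodes beta1-syntrophin, a scaffold for channels and kinases. It had 12980 and 13085 normalized counts in Control and 10742 and 9985 after EDA-A2. Both treated libraries were well under the Control pair. Sntb1 fell by 20.5%, from 13032 ± 74.3 to 10363 ± 535.2 (SD, n = 2 each; log2 fold change -0.33, standard error 0.07, adjusted p = 0.0102). Nos1, whose product the complex holds at the fibre membrane, had 1 or 2 counts per library, and Sntg1 and Sntg2 had 0 in all. These 3 genes are at or under the limit of 3 counts, so no difference was detectable at this depth.

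Cav3 (ENSMUSG00000062694, chromosome 6 from 112436466 to 112449833, plus strand) encodes caveolin-3, the muscle form of caveolin. Its raw counts were 5123 and 4207 in Control and 3219 and 3174 after EDA-A2, and its normalized counts were 5278, 4242, 3155 and 3119 in the same order. On the log2 scale the EDA-A2 libraries differed by 0.0165, whereas Control 1 stood 0.315 above Control 2. Both EDA-A2 libraries lay under both Control libraries. Cav3 fell from 4760 ± 732.5 to 3137 ± 25.4 normalized counts (SD, n = 2 each). Its log2 fold change was -0.60 (standard error 0.09, 95% interval -0.79 to -0.41, adjusted p = 0.000826 by edgeR's quasi-likelihood test). In percent, that interval runs from -42.2% to -24.9%. The size depends on which Control library is used: -0.43 without Control 1 (adjusted p = 0.256) and -0.75 without Control 2 (adjusted p = 0.157), each on 3 libraries, where no gene of the whole table passed. With no filter on low counts the log2 fold change was -0.61 and the adjusted p was 0.120. Acta1 and Myh3, the myotube markers called lower with Cav3, had smaller within-Control gaps in the same direction (186033 and 173942 normalized counts for Acta1, 236852 and 233601 for Myh3). On the log2 scale these gaps were 0.0969 and 0.0199, beside 0.315 for Cav3. In the myotube markers not called the gap was 0.383 for Ckm, 0.306 for Myog, 0.188 for Ttn, 0.0885 for Mymk and 0.00574 for Tnnt3. The part of the myotube markers in the change of Cav3 was not tested.

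**Figure D3:**
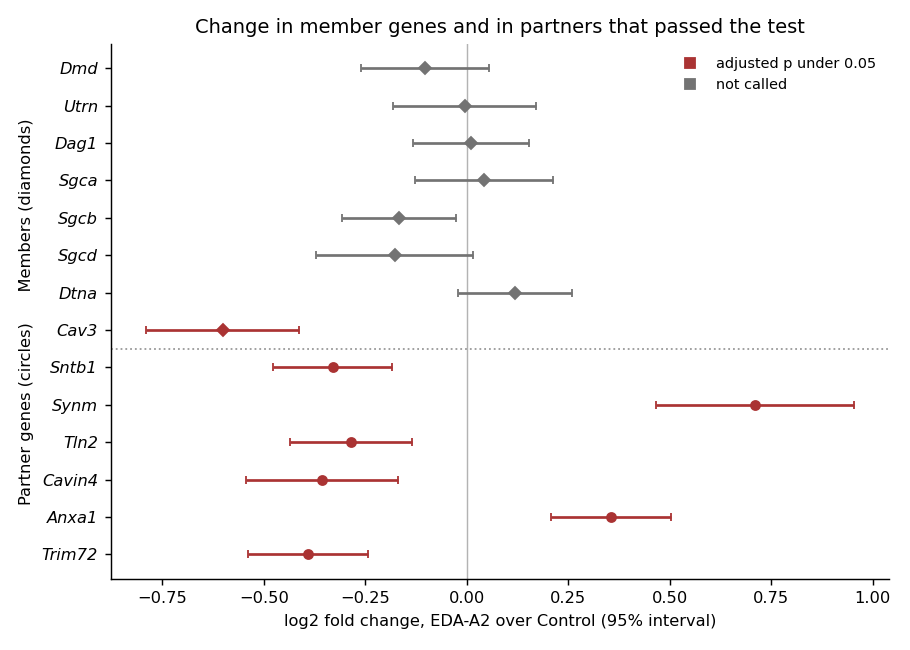
Log2 fold change of EDA-A2 over Control (x axis) with its 95% interval (bars) for the 8 genes and the 6 partner genes called (y axis), coloured by adjusted p. Cav3 at -0.60 is the only member whose interval lies wholly beyond the changes of the other members.

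Cav3 was searched for sequence motifs just upstream of its start, together with the other members and the partners called, since myotube genes are often bound there by myogenic factors. The windows are the 250 bases before the annotated start of the canonical transcript on GRCm39, read 5′ to 3′ on the coding strand. They are shown for Cav3, for the caveolar and repair partners Cavin4 and Trim72 that fell as well, and for Dmd, which was not called. Capitals mark matches to the E-box CANNTG, which myogenic bHLH factors such as MyoD bind, to the MEF2 motif or to the CArG box of serum response factor, on either strand.
Cav3 (chr6:112436216-112436465, plus strand): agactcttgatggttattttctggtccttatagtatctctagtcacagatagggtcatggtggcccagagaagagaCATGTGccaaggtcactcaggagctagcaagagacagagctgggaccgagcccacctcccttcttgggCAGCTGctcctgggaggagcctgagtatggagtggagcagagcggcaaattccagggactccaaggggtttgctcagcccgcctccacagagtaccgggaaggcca
Cavin4 (chr4:48663253-48663502, plus strand): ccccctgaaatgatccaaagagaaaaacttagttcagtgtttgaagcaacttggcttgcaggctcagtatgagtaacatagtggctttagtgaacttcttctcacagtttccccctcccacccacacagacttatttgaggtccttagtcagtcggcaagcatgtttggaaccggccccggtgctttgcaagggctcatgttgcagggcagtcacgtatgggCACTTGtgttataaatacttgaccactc
Trim72 (chr7:127602812-127603061, plus strand): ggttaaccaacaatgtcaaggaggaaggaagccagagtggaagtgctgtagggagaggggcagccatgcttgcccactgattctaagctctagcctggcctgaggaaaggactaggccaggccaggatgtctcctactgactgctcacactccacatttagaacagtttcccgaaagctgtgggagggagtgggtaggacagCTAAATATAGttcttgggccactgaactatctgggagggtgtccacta
Dmd (chrX:81992224-81992473, plus strand): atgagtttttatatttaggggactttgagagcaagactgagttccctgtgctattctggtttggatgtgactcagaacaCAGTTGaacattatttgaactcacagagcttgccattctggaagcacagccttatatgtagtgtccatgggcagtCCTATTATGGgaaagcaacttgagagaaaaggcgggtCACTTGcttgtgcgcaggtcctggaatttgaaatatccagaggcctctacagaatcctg
Positions are those of a match's first base, counted back from the start. The Cav3 window held 2 E-boxes, at -174 and -106, and the nearer was a CAGCTG. It also held, at -95 and not in capitals, a match to a loose NFκB motif (3 G, any 5 bases and 2 C). Cavin4 had an E-box at -28, Trim72 had no E-box but a MEF2 match at -48, and Dmd had E-boxes at -171 and -59 and a CArG match at -96.
Across 21770 protein-coding genes, 64.8% of such windows held an E-box, 11.9% CAGCTG, 47.8% the loose NFκB motif, 0.505% the MEF2 motif and 1.40% the CArG box. Among the 8 members the numbers were 6, 3, 4, 0 and 1 in that order, and among the 5 genes called lower here they were 4, 1, 1, 1 and 0. A match is a description of the letters and not a site of binding.

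Caveolae and membrane repair were described by 14 genes, all tested. Of these, 1 rose and 2 fell, beside 2.45% and 2.13% of all genes tested. Negative log2 fold changes numbered 11, beside 7665 of the 15173 genes tested. The median log2 fold change was -0.11 (-0.0509 with total counts and -0.0622 without Control 1). Cavin4 (chromosome 4 from 48663503 to 48674045), which encodes the muscle-specific coat protein of caveolae, had 17932 and 14513 normalized counts in Control and 12968 and 12376 after EDA-A2. As with Cav3, Control 1 was the highest library and the EDA-A2 libraries lay close together under both Controls. Cavin4 fell by 21.9%, from 16222 ± 2417 to 12672 ± 418.5 (SD, n = 2 each; log2 fold change -0.36, standard error 0.09, adjusted p = 0.0301). Without Control 1 its log2 fold change was -0.19 (adjusted p = 0.340), without EDA-A2 2 its adjusted p was 0.162, and with total counts 0.0669.

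Trim72 (chromosome 7 from 127603062 to 127611190) encodes MG53, the muscle protein that gathers vesicles at membrane tears and binds caveolin-3 and dysferlin. It had 15703 and 17004 normalized counts in Control and 12413 and 12524 after EDA-A2. Here Control 2 was the highest library, and both treated libraries were below both Controls. Trim72 fell by 23.8%, from 16353 ± 919.7 to 12469 ± 78.7 (SD, n = 2 each; log2 fold change -0.39, standard error 0.07, adjusted p = 0.00337). The exons of Trim72 overlap those of Gm15533 on the opposite strand over 676 bases, and Gm15533 had 2 to 4 counts per library. Dysf, which encodes dysferlin, had a log2 fold change of -0.09 (adjusted p = 0.610).

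The gene of this list that rose was Anxa1 (chromosome 19 from 20350792 to 20368374), which encodes annexin A1, a calcium-dependent membrane-binding protein. Its normalized counts were 6949 and 7523 in Control and 9087 and 9430 after EDA-A2. The groups did not overlap. Anxa1 rose from 7236 ± 405.3 to 9259 ± 242.1 (SD, n = 2 each), by 27.9% (log2 fold change 0.36, standard error 0.07, adjusted p = 0.00680). The non-muscle caveolin genes Cav1 and Cav2 had log2 fold changes of -0.05 (adjusted p = 0.834) and -0.12 (0.594), and Cavin1, the coat protein that all caveolae need, had -0.02 (0.925). Dysf, Cav1, Cav2 and Cavin1 were named after their values were seen.

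Inside the cell, 14 of 15 genes that link the complex to filaments and adhesion sites were tested. Of these, 1 rose and 1 fell, beside 2.45% and 2.13% of all genes tested. The median log2 fold change of -0.05 turned to 0.0062 with total counts. Synm (chromosome 7 from 67379908 to 67409527) encodes synemin, an intermediate filament protein that binds dystrophin, alpha-dystrobrevin and desmin. It had 301.9 and 362.0 normalized counts in Control and 548.9 and 537.6 after EDA-A2. The EDA-A2 libraries lay close together above both Controls. Synm rose from 331.9 ± 42.5 to 543.2 ± 8.01 (SD, n = 2 each), by 63.6% (log2 fold change 0.71, standard error 0.11, adjusted p = 0.00165). The exons of Synm overlap those of Ttc23 and Gm45102 on the opposite strand, over 84 and 463 bases.

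Tln2 (chromosome 9 from 67124369 to 67466985) encodes talin-2, the muscle talin that ties integrins to actin. Its normalized counts were 6744 and 6152 in Control and 5163 and 5422 after EDA-A2. Both treated libraries were under both Controls. Tln2 fell by 17.9%, from 6448 ± 418.7 to 5292 ± 183.4 (SD, n = 2 each; log2 fold change -0.29, adjusted p = 0.0307). The call was lost whichever library was left out (adjusted p from 0.115 to 0.330) and with total counts (0.0743).

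A pair of genes in this list had adjusted p-values just over the threshold and were named after their values were seen. Sync, which encodes syncoilin, a filament protein that binds alpha-dystrobrevin, had 934.5 and 747.2 normalized counts in Control and 1165 and 1031 after EDA-A2 (log2 fold change 0.39, adjusted p = 0.0525). Krt19, a keratin that links costameres to dystrophin, had 993.2 and 825.9 in Control and 740.0 and 661.4 after EDA-A2 (-0.38, adjusted p = 0.0525). Des, which encodes desmin, the main muscle intermediate filament, stood at 29977 to 31073 in the 4 libraries with overlapping groups (-0.02, adjusted p = 0.933).

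Across the 6 partner lists, 58 of 64 genes were tested. Of these, 2 rose and 4 fell, which is 10.3% beside the 4.57% of all genes tested. Negative values numbered 40, beside 7665 of the 15173 genes tested. In edgeR's test 27.6% of them had an unadjusted p under 0.05, beside 15.6% of all genes tested. That share was 40.0% for the matrix ligands, 35.7% for the cytoskeletal links, 33.3% for the adaptors and 28.6% for caveolae and repair. It was 25.0% for the members, 13.3% for the sugar-chain enzymes and 0.0% for the other sarcoglycans and sarcospan. The members and the lists were chosen with earlier results of these data known. The median log2 fold change was -0.07. The 4 that fell were Sntb1, Tln2, Cavin4 and Trim72, and the 2 that rose were Synm and Anxa1. Without either Control library no gene of the table was called, these 6 included, but each kept its sign. Without EDA-A2 2, Sntb1 and Anxa1 lost their calls too (adjusted p = 0.200 and 0.0882).

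**Figure D4:**
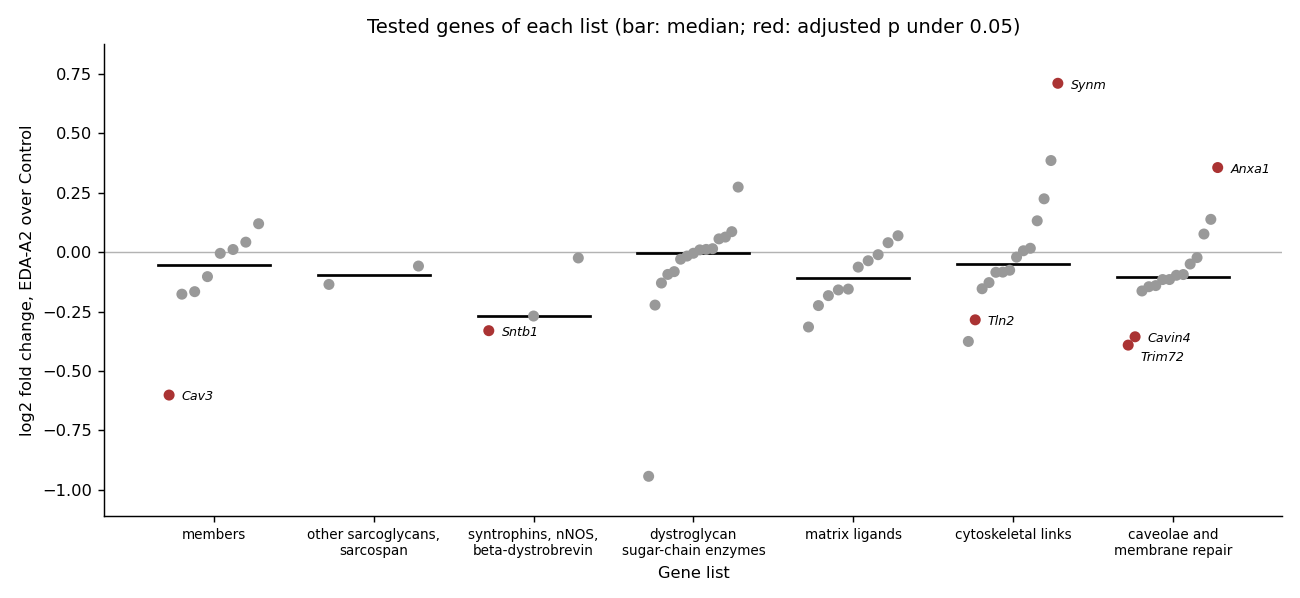
Log2 fold change of EDA-A2 over Control (y axis) for each tested gene of the member list and the 6 partner lists (x axis), with a bar at each list's median and red points for adjusted p under 0.05. The medians lie between -0.27 and -0.005, and single genes such as Synm at 0.71 and Cav3 at -0.60 stand away from them, as does B4gat1 at -0.94, which was not called.

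The genes whose profile over the 4 libraries was most like that of Cav3 were sought among 2752 protein-coding genes of similar abundance, by the root mean square difference of centred log2 CPM. The nearest was Ttc9, a tetratricopeptide repeat gene, at 0.0367, with 3958 and 3260 normalized counts in Control and 2535 and 2445 after EDA-A2. Next were Msln, the gene of the surface protein mesothelin, at 0.0375 (5423, 4139, 3296 and 3219), and St8sia2, a polysialyltransferase gene, at 0.0556 (4663, 3771, 3032 and 2711). All 3 have Control 1 above Control 2 and both EDA-A2 libraries lowest, as Cav3 does. They were picked for this likeness, so the shared order follows from the search and only describes 4 libraries.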

How the data were processed

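The authors deposited 1 table per library of raw counts of read pairs per Ensembl gene from stranded, polyadenylated RNA libraries, without normalization. The submitters' processing notes name FastQC 0.11.9, MultiQC 1.12, Trim Galore 0.6.5, STAR 2.7.3a, HTSeq 0.11.1 and GRCm39. The annotation release and the strand option of the counting are not given in the sources used here, so counts of genes with exons on opposite strands of the same stretch are uncertain.

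HTSeq's summary lines (6.68% to 7.40% of pairs outside genes, 0.946% to 0.986% ambiguous, 4.56% to 4.76% not unique) were left out. IDs were named with GENCODE (52610 of 53647 matched). Counts were tested in R 4.3.3 with edgeR 4.0.16 (TMM factors 0.972 to 1.026, filterByExpr with a minimum count of 10 and total of 15, glmQLFit and glmQLFTest, condition only, all 4 libraries). Benjamini-Hochberg adjustment ran over the 15173 genes tested, with a threshold of 0.05. Normalized counts are counts divided by each library's TMM-adjusted size relative to the mean. The chi-square per gene between libraries of 1 group was 9.94 for Control and 4.73 for EDA-A2, which is more spread than counting error alone gives. These values cannot tell whether the libraries of a group came from separate cultures. Standard errors were taken from the fitted change and the root of its F statistic. Limits from 3 counts cover counting error only. Steps were tested on simulated counts.

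The members and the gene lists were chosen with earlier results of these data known. Some genes of the partner lists are not reported here and were left out of the lists' counts and medians, as were the shares of the sarcoglycan RNAs. Members were all named. In each partner list the genes called were named, or the 2 with the smallest p where none was called. Outside this rule, Sync, Krt19, Des, Dysf, Cav1, Cav2 and Cavin1 were named, as were some genes under the filter. For each member called, the 3 nearest profiles were named. Alternatives were upper quartile, DESeq2 size factors and total counts, other filters, the DESeq2 1.42.0 Wald test, a replicate block, length and GC offsets (loess, span 0.3) and leaving out each library. Levels per kilobase of all exons were added after seeing the data.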

Additional observations from a re-analysis of the deposited data

How the results depend on the processing

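All values compare EDA-A2 with Control. Leaving out 1 library at a time gave 0 to 238 genes called higher and 0 to 170 lower in the whole table. Both were 0 without Control 1 (1062 and 1117 genes at an unadjusted p under 0.05) or without Control 2 (1245 and 1204), where the lone Control library is assumed to vary like the EDA-A2 pair. With no filter, 64 and 22 of 25545 genes tested were called, and total counts gave 194 lower. Leaving out libraries, the log2 fold change of Cav3 ran from -0.75 to -0.43 (adjusted p 3.22e-05 to 0.256), Utrn from -0.13 to 0.13, Dag1 from -0.0128 to 0.0336 and Sgca from -0.027 to 0.11. Of these, Utrn turned positive with total counts (0.051), without Control 1 (0.13) and without EDA-A2 2 (0.03), and Dag1 (-0.0128) and Sgca (-0.027) turned negative without EDA-A2 2. Sgce ran from -0.1812 to 0.0789, which was without Control 2. The cause was not tested. Cav3 had -0.61 (adjusted p 0.120) with no filter and stayed called in the other scalings, filters and corrections.

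Members called lower numbered 0 with no filter (2 at an unadjusted p under 0.05) and 0 to 1 with a library left out. Their median was 0.0017 with total counts, -0.10 with length and GC offsets, and -0.13 to -0.0128 with a library left out. Partner genes called higher and lower numbered 5 and 2 with total counts, 0 and 0 with no filter (16 at an unadjusted p under 0.05), and 0 to 2 and 0 to 4 with a library left out. Their median was -0.0148 with total counts and -0.0687 to -0.0514 with a library left out.

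The replicate numbers are shared between groups only as numbers: the deviations of same-numbered libraries from their group means correlated at 0.0828 over 15173 genes. With a replicate block, 537 genes were higher and 529 lower, 4 partner genes higher and 6 lower, and Cav3 had -0.59 and was called. Rxylt1 (adjusted p 0.0305), Lamb2 (0.0347), Sync (0.00323) and Krt19 (0.00665) passed with it. The block with length and GC offsets gave 575 higher, 725 lower and a members' median of -0.10. Under it Sync (0.000274) and Krt19 (0.00216) passed, Lama2 (0.0192) passed too, and Rxylt1 (0.0992) and Lamb2 (0.0727) did not.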
